A study of Mus musculus with 4 samples.

Results

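Astrocyte nuclei were taken from 4 single-nucleus RNA libraries of mouse hypothalamus by a count of marker transcripts, which gave 2236 nuclei of 54422 that passed the filters. A nucleus had to show at least 500 genes, at most 5% of its unique molecular identifiers (UMIs, 1 per captured transcript) from mitochondrially encoded genes, at least 2 UMIs of Aqp4, Gja1, Ntsr2 and Slc39a12 in sum, at most 2 UMIs of the neuronal transcript Snhg11, and 0 UMIs of Rax, a gene of tanycytes. The libraries gave 534 such nuclei in vehicle 1, 509 in vehicle 2, 605 in ImP 3 and 588 in ImP 4. All libraries came from wild type C57BL/6J mice, called conventional in the series' design text and SPF in the sample titles. The ImP mice received 350 µg per day of imidazole propionate, a bacterial product of histidine, dissolved in water with 1% DMSO, and the other mice received vehicle. Both were delivered into the peritoneal cavity by an osmotic minipump over 2 weeks, after which the hypothalamus was dissected and frozen. Age and sex are not given in the labels, nor whether a library is 1 animal. The p-values of ImP against vehicle below therefore measure the spread between libraries, not between known animals. Those of classes of nuclei compared inside each library refer to how that inner difference varied from library to library. In the tests of single genes this spread was estimated partly from all genes together. It can therefore be too small for a gene whose UMIs lie in few nuclei.

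Astrocytes are the glia that surround synapses and vessels. They clear glutamate and GABA, take up potassium, store glycogen, and supply cholesterol and lipoproteins. In the hypothalamus they lie beside tanycytes and ependymal cells, which line the third ventricle, and they are a source of angiotensinogen (Agt), the protein from which angiotensin peptides are cut. Gfap, the intermediate filament protein best known as an astrocyte marker, is abundant in astrocytes of fibre tracts and of the brain surface and low in many grey matter astrocytes.

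The rule was strict on some genes and close to its limit on others. The 4 marker genes reached 2 UMIs in 4176 nuclei, of which the Snhg11 limit removed 1897 and the Rax limit a further 43. Of the members, 1087 (48.6%) had exactly 2 marker UMIs, 597 had 3 and 552 had 4 or more, up to 15. Just inside, nuclei with 2 marker UMIs carried 26 other astrocyte genes at a summed 22647.5 CPM (counts scaled to a sum of 1000000 UMIs) and 10 oligodendrocyte genes at 1790 CPM. Just outside, the 2320 nuclei with 1 marker UMI that met the other limits carried them at 15254.5 and 4464 CPM. Members with 2 Snhg11 UMIs had the astrocyte genes at 23872.9 CPM, and the 436 nuclei with 3, just outside, at 22578.1 CPM. The 43 nuclei left out for Rax had them at 14199.9 CPM.

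Members held between 840242 and 1015082 UMIs per library, with a median of 1490 to 1757 UMIs and 988 to 1140 genes per nucleus. In each library this was lower than the median of all nuclei, which lay between 2820 and 3757 UMIs. No barcode was shared between the members of any pair of libraries, although 141 to 178 barcodes of each whole library also occurred in another. The ImP 4 library stood apart: pituitary hormone transcripts were present in nearly all of its nuclei, and results that rest mainly on it are also given without it. The background of Agt and Gfap UMIs was taken from 2 comparison sets that hold at most 1 marker UMI. What part of their UMIs was free RNA was not tested. The sets were 36064 neurons with at least 10 Snhg11 UMIs and 1461 oligodendrocytes with at least 5 UMIs of Mag, Mog, Mobp and Cldn11. Scrublet marked 13, 16, 20 and 18 members as doublets. They were kept, and counts of calls that changed without them are given beside the result.

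The genes that chose the members were, by construction, far above their level elsewhere, and they are described without a test. Aqp4, the water channel of astrocyte endfeet, was at 201, 169, 171 and 140 CPM in the members of vehicle 1, vehicle 2, ImP 3 and ImP 4, against a mean of 7.55 CPM in all other nuclei. Gja1, the gap junction protein connexin 43, was at 377, 438, 464 and 463 CPM against 22.9 CPM. The zinc transporter gene Slc39a12 was at 732, 814, 843 and 793 CPM against 22.1 CPM. Ntsr2, a neurotensin receptor, lay between 370 and 388 CPM against 21.2 CPM. The levels of each differed little between libraries, and vehicle and ImP overlapped except for Gja1. Snhg11 was not absent from members, at 526, 652, 651 and 709 CPM against 7026 CPM elsewhere.

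A list of 26 astrocyte genes that the rule did not use checked the label. All 26 were higher in members than in all other nuclei in each of the 4 libraries, with a median fold of 8.32, while 37.2% of the 10832 genes tested were higher in all libraries and the median fold over them was 1.08. Since the members were chosen by correlated markers, this is a description of the choice. The list summed to 23913, 25364, 24971 and 21809 CPM in the 4 libraries. Slc1a2, the main glutamate transporter, was at 2124, 2286, 2103 and 1935 CPM, 13.3-fold the level elsewhere. Slc4a4, a sodium bicarbonate cotransporter, was at 2531, 3132, 2775 and 2459 CPM, 21.0-fold. The proteoglycan gene Gpc5 was at 8352, 8074, 8173 and 5646 CPM, with ImP 4 the lowest, and 10.7-fold the level elsewhere. Acsbg1, an acyl-CoA synthetase, was 16.9-fold higher, the connexin gene Gjb6 16.5-fold, the growth factor receptor gene Fgfr3 16.4-fold, Aldh1l1 of folate metabolism 14.2-fold, and the glial transcription factor gene Sox9 9.91-fold. The secreted proteins stood lowest on the list, with Apoe at 4.05-fold, Cst3 at 2.80-fold and Clu at 2.46-fold.

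**Figure D1:**
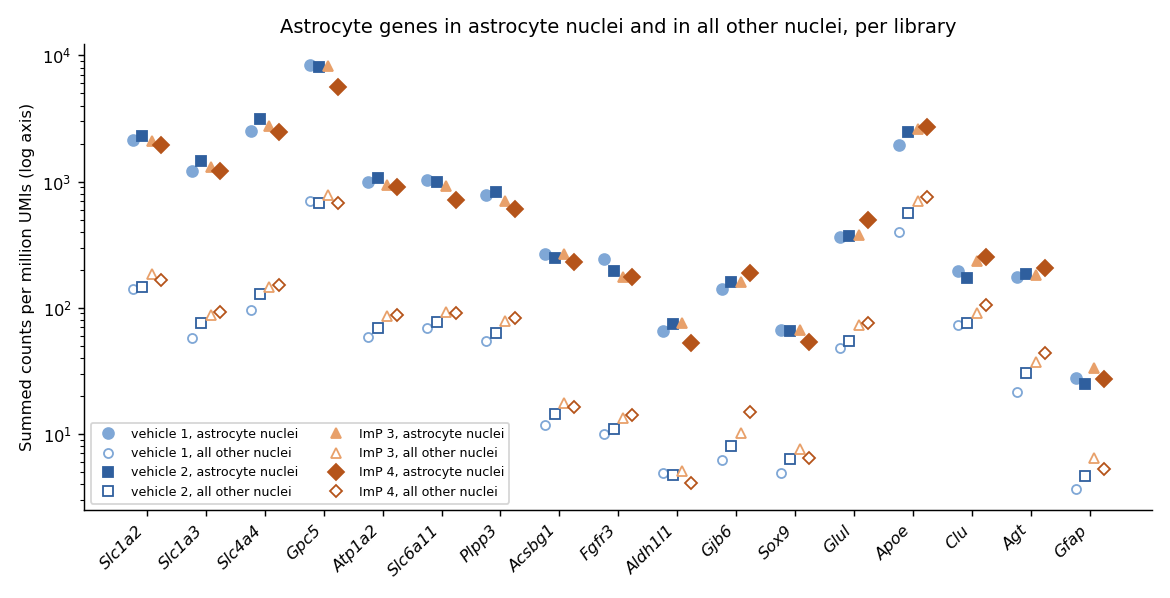
Summed CPM (log axis) of 15 astrocyte genes outside the rule and of Agt and Gfap, with 1 point per library. Filled points are astrocyte nuclei and open points are all other nuclei; the filled points lie above the open points for every gene shown, and the gap is narrowest for Clu, Apoe, Agt and Gfap.

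Functional groups followed the same order. Of 14 genes of glutamate and GABA uptake and turnover in the files, 10 were higher in members in all libraries (37.2% of all genes tested were), with a median fold of 4.17. Slc6a11, the GABA transporter GAT3, was at 1023, 994, 919 and 716 CPM, 11.1-fold the level elsewhere. Of 18 genes of potassium, water and gap junction handling, 14 were higher in all libraries, with a median fold of 5.98. The potassium channel gene Kcnj16 was 10.4-fold higher and Kcnj10 7.56-fold. Of 19 glycogen and glucose genes, 16 were higher in all libraries. Ppp1r3c, which directs glycogen synthesis, was 11.4-fold higher and the glycogen phosphorylase gene Pygb 4.37-fold. Cholesterol and lipoprotein genes were higher in all libraries for 22 of 26, with a median fold of 1.83, and the cholesterol exporter gene Abca1 was at 229, 209, 192 and 198 CPM. Of 24 secreted synapse and matrix genes, 16 were higher in all libraries. Among them were 2 receptors for engulfing synapses and debris, Mertk at 14.7-fold and Megf10 at 8.54-fold.

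Receptor genes lay on both sides. Of 38 hormone and transmitter receptor and transporter genes, 20 were higher in members in all libraries (37.2% of all genes tested were) and 11 in none. Slco1c1, a thyroid hormone transporter, was at 134, 86.9, 126 and 88.7 CPM, 17.3-fold the level elsewhere, and Dio2, which activates thyroid hormone, was 8.18-fold higher at 9.52 to 26.1 CPM. The endothelin receptor gene Ednrb was at 168, 190, 195 and 138 CPM, 10.5-fold. The leptin receptor gene Lepr had 1, 0, 0 and 2 UMIs in the members of the 4 libraries, and Rax had 0 by the rule. The other components of the renin-angiotensin system were thin beside Agt. Ren1, Agtr1b, Agtr2 and Mas1 had 0 UMIs in the members of all 4 libraries, and the receptor gene Agtr1a had 1, 0, 0 and 4. The mineralocorticoid receptor gene Nr3c2 was at 532, 480, 544 and 349 CPM, 2.25-fold the level elsewhere.

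Regional transcription factor genes were compared with all other nuclei, which does not by itself place these astrocytes in a region. Of 30 forebrain and hypothalamic factors listed, 17 were higher in members in all libraries, as 37.2% of all genes tested were. Dbx2, a homeobox gene, was the most contrasted at 152, 156, 137 and 98.1 CPM, 16.5-fold the level elsewhere. Otx2 was 8.28-fold higher, Irx5 6.67-fold, Nkx2-2 5.43-fold, Pax6 5.36-fold and Nr2f1 3.12-fold, each at 73 CPM or less. Nkx2-1, which defines much of the hypothalamus, was at 7.88, 8.33, 17.8 and 19.8 CPM, 0.988 of the level elsewhere. A second list, of 15 genes used to mark telencephalic and other astrocyte types, Agt among them, was also high. There 12 were higher in all libraries (37.2% of all genes tested were), with a median fold of 5.65. They included the serine and alanine transporter gene Slc7a10 at 295, 301, 235 and 240 CPM (15.1-fold) and Itih3 at 413, 497, 399 and 328 CPM (12.8-fold).

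The promoters of Agt and Gfap are printed because the classes described next rest on these 2 transcripts. Both come from RefSeq on build GRCm38.p6, whereas the counts were made on GRCm39, so the coordinates belong to the sequence alone. Each runs from 250 bases before the gene's start to 50 bases after it and is shown 5′ to 3′ on the gene's strand. The Agt window is chr8:124569657-124569956 and the Gfap window chr11:102897151-102897450, both on the minus strand. Capitals mark matches, on either strand, to 3 short motifs: the TATA box TATAAA, the NFI site TTGGC and the glucocorticoid receptor site AGAACA.
Agt: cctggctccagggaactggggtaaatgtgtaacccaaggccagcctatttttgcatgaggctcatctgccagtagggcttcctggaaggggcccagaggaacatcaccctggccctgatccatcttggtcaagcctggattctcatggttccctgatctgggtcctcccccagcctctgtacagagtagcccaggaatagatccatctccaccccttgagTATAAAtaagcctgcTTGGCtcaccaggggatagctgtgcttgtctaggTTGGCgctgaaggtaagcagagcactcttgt
Gfap: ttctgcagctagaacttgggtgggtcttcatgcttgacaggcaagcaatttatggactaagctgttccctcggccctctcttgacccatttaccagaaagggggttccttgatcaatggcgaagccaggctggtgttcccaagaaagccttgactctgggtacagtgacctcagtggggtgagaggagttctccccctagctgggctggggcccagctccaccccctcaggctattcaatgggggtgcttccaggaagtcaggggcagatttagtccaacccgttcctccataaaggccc
The Agt window held TATAAA from 30 bases before the start, and TTGGC from 15 bases before and from 19 bases after it. No match to any of the 3 motifs was found in the Gfap window. Among 32851 promoter windows of this length, 13.6% held TATAAA, 46.7% TTGGC and 19.0% AGAACA, so such matches are frequent and describe only the letters.

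Agt was found in many members and Gfap in few. An Agt UMI was present in 595 of the 2236 members (26.6%), of which 499 had 1 UMI and none more than 4. By library the share was 27.3% (146 of 534), 26.5% (135 of 509), 24.1% (146 of 605) and 28.6% (168 of 588). In oligodendrocytes, which have a similar depth (median 1504 to 1706 UMIs), the shares were 7.58%, 8.95%, 11.8% and 11.7%. In neurons, at medians of 3671 to 4724 UMIs, they were 7.62%, 9.43%, 10.7% and 12.04%. After each nucleus was thinned to 1000 UMIs, which left out 234 shallower members, members lay between 16.6% and 17.8%, oligodendrocytes between 4.39% and 7.59% and neurons between 1.84% and 3.76%. The member shares did not overlap those of either comparison set, before or after thinning. The level was 174, 186, 181 and 208 CPM in members, 5.65-fold that in all other nuclei.

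A Gfap UMI was present in 90 members (4.03%), of which 78 had 1 UMI, 10 had 2 and 2 had 3 or more. The shares by library were 4.49% (24 nuclei, exact 95% binomial interval 2.90 to 6.61), 2.55% (13 nuclei, 1.37 to 4.33), 4.79% (29 nuclei, 3.23 to 6.81) and 4.08% (24 nuclei, 2.63 to 6.01). Oligodendrocytes showed a Gfap UMI in 1.77%, 1.23%, 1.79% and 2.29% of nuclei and neurons in 1.44%, 1.53%, 2.01% and 1.31%. Thinned to 1000 UMIs, the shares were 2.55%, 1.14%, 2.64% and 2.09% in members, 0.80%, 0.676%, 1.38% and 1.58% in oligodendrocytes and 0.364% to 0.603% in neurons. Members were above both sets within every library, but in all 4 libraries their interval overlapped that of the oligodendrocytes, and most Gfap-positive members rest on 1 molecule. Intervals cover counting error only. Of Gfap-positive members 32.2% were also Agt-positive (29 of 90, interval 22.8 to 42.9), against 26.4% of Gfap-negative members (24.5 to 28.3). After thinning the shares were 16.3% and 17.1%, so a difference was not detectable at this depth.

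**Figure D2:**
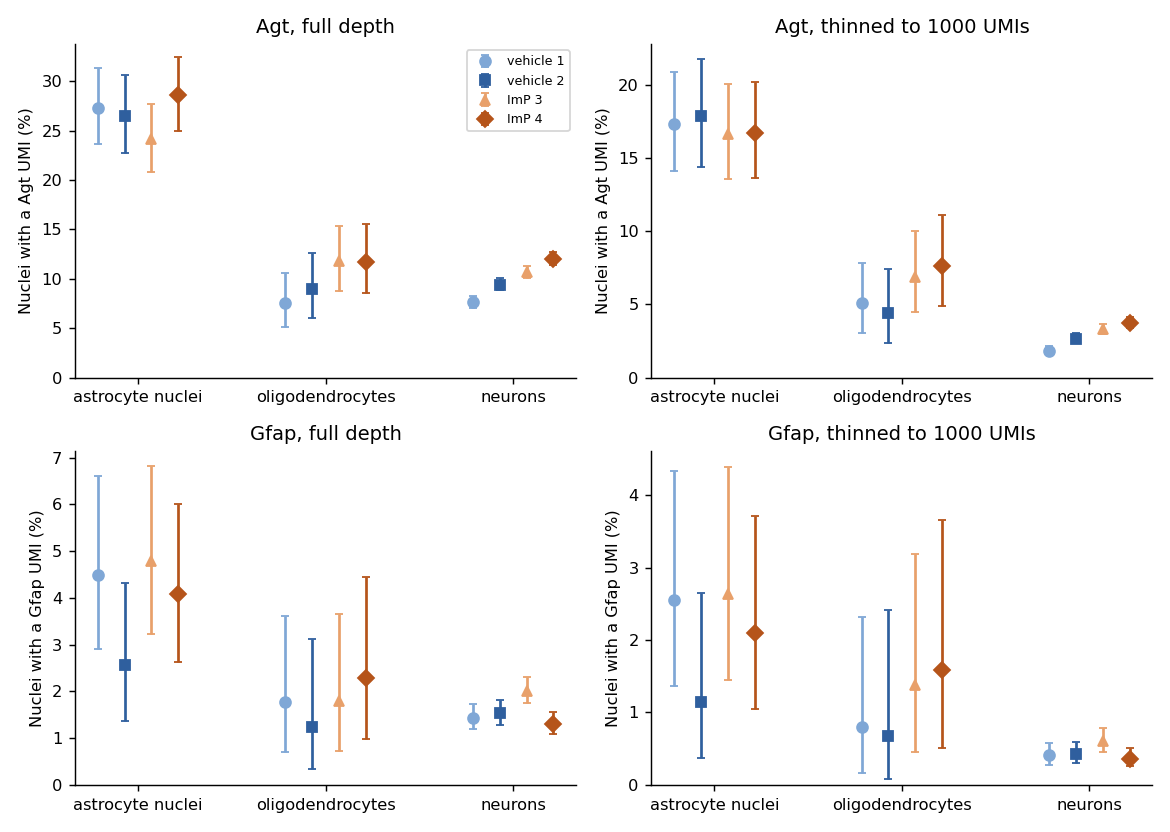
Percent of nuclei with a UMI of Agt (top) and Gfap (bottom) in astrocyte nuclei, oligodendrocytes and neurons, at full depth (left) and thinned to 1000 UMIs (right). Points are libraries and bars exact 95% binomial intervals. At full depth the astrocyte shares of Agt lie at 24.1% to 28.6% and all others at 12.04% or less. The astrocyte intervals of Gfap there reach down to 1.37%, into those of the oligodendrocytes. Thinned, the astrocyte shares of Agt lie at 16.6% to 17.8%, and the astrocyte intervals of Gfap reach down to 0.373%.

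No gene passed the test between Gfap-positive and Gfap-negative members at this depth. The sums of each class in each library were compared with edgeR's quasi-likelihood test, in which library was a block. None of the 7309 genes tested passed a Benjamini-Hochberg adjusted threshold of 0.05 (0%). Without adjustment p lay under 0.05 for 342 genes, of which those higher in the positive class were 0.958% of all tested and those lower 3.72%. DESeq2 called 0 as well, with 124 under that p. The Gfap-positive sums held only 55181, 29337, 49562 and 38178 UMIs in the 4 libraries. On simulated counts of the same size the test recovered 9.78% of genes changed 2-fold and 67.0% of those changed 4-fold, so moderate differences would have been missed. The median log2 difference over all genes was -0.13, and -0.02 with DESeq2's scaling factors.

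Reactive astrocyte genes, the group usually read together with Gfap, were few. Of 32 listed, 19 were detected in members of all libraries, and Lcn2, Steap4 and Emp1 had 0 UMIs in every library. Without Gfap itself the list summed to 489 CPM in Gfap-positive and 295 CPM in Gfap-negative nuclei of vehicle 1, 272 and 329 in vehicle 2, 524 and 361 in ImP 3 and 550 and 391 in ImP 4. It was higher in the positive class in 3 of 4 libraries. Of its members, 5 reached the test, 0 of them higher in every library (4.68% of all genes were), at a median log2 difference of 0.28 with 0 called. Stat3, a transcription factor of reactive astrocytes, had a log2 difference of 0.28 (SE 0.42), and the MHC class I gene H2-D1 0.55 (SE 0.69). Oligodendrocyte precursor genes went the other way, at a summed 362 against 481 CPM, 34.1 against 448, 181 against 391 and 157 against 367, lower in the positive class in 4 of 4 libraries. With 29337 to 55181 UMIs in each Gfap-positive sum, both list sums rest on few molecules there. Of the 4 precursor genes tested, 1 was itself lower in every library, as 8.18% of all genes were. The lowest p among them was that of Lhfpl3, with a log2 difference of -1.47 (SE 0.38, unadjusted p = 0.000115, edgeR adjusted p = 0.281). Of the 26 identity genes, 5 had a positive difference (37.7% of all genes did), with a median of -0.15 close to that of all genes. Itih3 had -0.65 and Slc7a10 -0.60, both with adjusted values above the threshold.

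Agt-positive members differed from Agt-negative members mostly in genes that were lower in them. On the marker lists of other cell types, 2 of 3 ependymal markers tested were called lower (0.745% of all genes were). So were 2 of 5 oligodendrocyte precursor markers and the 1 tanycyte marker tested. Of the other lists 0 were called, with 13 neuron, 10 oligodendrocyte, 4 microglia, 2 fibroblast, 1 endothelial and mural and 1 pituitary marker tested. On the list of astrocyte identity genes 1 of 26 rose. Of 7382 genes tested with the same edgeR design, 68 (0.921%) passed the adjusted threshold, 13 of them higher in Agt-positive nuclei (0.176%) and 55 lower (0.745%). With a block for library, both classes came from every library, so differences between libraries do not enter. The median UMI count was 1594 in positive and 1549 in negative nuclei. An Agt UMI was also present in 10.0% of the comparison oligodendrocytes and 10.1% of the neurons, and the part of free RNA in the positive class was not tested. DESeq2 called 3 of the 68, Col23a1, Slit2 and Csmd1. The test without the library block called 4, all among the 68. With 1 library left out there were 2 to 7 calls in the higher direction and 32 to 55 in the lower, with a total of 34 when ImP 4 was the one left out, 39 for vehicle 2 and 45 for vehicle 1. Without the Scrublet-marked nuclei 8 genes were called higher and 63 lower, and 55 of these 71 were among the 68. With the class limit at 2 UMIs the split was 1 and 30, and at 1000 or more genes per nucleus it was 2 and 37. On simulated counts of the same size the test recovered 78.1% of genes changed 2-fold and also called 12 unchanged genes. The simulation gave all genes the same spread, so it does not cover genes whose UMIs lay in few nuclei.

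The genes that rose in the positive class changed little, and their number was the least stable part of this comparison: DESeq2 and 4 or more marker UMIs gave 0 of them, and thinned nuclei 3. Tmem44, which encodes a membrane protein, rose most, at 56.6 against 28.7 CPM in vehicle 1, 57.4 against 24.4 in vehicle 2, 43.5 against 26.2 in ImP 3 and 54.1 against 13.2 in ImP 4 (log2 1.22, SE 0.28, edgeR adjusted p = 0.0135). It was higher in all 4 libraries. Arrb1, an arrestin that ends receptor signalling, rose by log2 0.68 (SE 0.15, adjusted p = 0.00881), with 152 against 95.5, 194 against 104, 209 against 109 and 108 against 106 CPM. The last of these pairs shows nearly no difference. Gabrb1, a GABA-A receptor subunit, rose by log2 0.24 in 4 of 4 libraries, at 2209 against 1820, 2403 against 2185, 2398 against 1972 and 2049 against 1807 CPM. Sparcl1, which encodes the secreted synapse-forming protein hevin, rose by log2 0.28 (1303 against 1002, 1228 against 1140, 1362 against 1176 and 1202 against 957 CPM). Slc6a11 rose by log2 0.26 (adjusted p = 0.0468). Slc25a5, Gm29514, Gramd3, Gm6145, Kirrel3 and Fry were named by the same rule, at log2 0.23 to 0.75, and Kirrel3 was at -0.0324 with the class limit at 2 UMIs. On the identity list 25 of 26 genes had a positive difference (52.9% of all genes did), 11 of them in every library (7.03% of all genes lay that way), 12 with an unadjusted p under 0.05 (4.1% of all genes) and 1 called, at a median of 0.16 against 0.02 for all genes. The summed list was higher in the positive class in 4 of 4 libraries, for example 26076 against 23080 CPM in vehicle 1.

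Dnah12, an axonemal dynein heavy chain of motile cilia, had the lowest log2 difference of the genes named. It was at 7.08 against 96.9 CPM in vehicle 1, 0 against 26.1 in vehicle 2, 17.4 against 59.3 in ImP 3 and 0 against 88.1 in ImP 4. Its log2 difference was -3.48 (SE 0.42, adjusted p = 8.18e-08). Cfap299, of the cilia and flagella associated family, fell by 2.26 on the log2 scale, Spag16, of the central apparatus of the cilium, by 1.52 and Cfap44 by 1.25. These transcripts came from few nuclei. Dnah12 had UMIs in 53 members and the 20 richest held 77.0% of them, and for Cfap299 these were 54 members and 73.9%. Of the 3 ependymal markers tested, 2 were lower in every library, as 8.82% of all genes were. The 9 ependymal markers in sum were at 81.4 against 258, 30.9 against 119, 122 against 233 and 79.4 against 282 CPM.

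Slit2, a secreted guidance cue, had the smallest p of all and is named after its values were seen. It was at 216 against 491 CPM in vehicle 1, 203 against 727 in vehicle 2, 331 against 479 in ImP 3 and 426 against 1020 in ImP 4, with a log2 difference of -1.17 (SE 0.10, adjusted p = 5.84e-12). Col23a1, a collagen used as a tanycyte marker, was at 38.9 against 157, 66.3 against 236, 104 against 164 and 64.9 against 277 CPM (log2 -1.60, SE 0.18, adjusted p = 5.04e-09). In both genes every Agt-positive sum lay below its Agt-negative partner, and ImP 3 showed the smallest gap. With DESeq2 the SE was larger, at 0.26 for Slit2 and 0.29 for Col23a1. Efna5, an ephrin, fell by 1.29 on the log2 scale, the prolyl hydroxylase gene P3h2 by 2.02, the adhesion receptor genes Adgrv1 and Adgrl2 by 1.55 and 1.57, and Slc35f1, of the nucleotide sugar transporter family, by 1.73. Col23a1 was the one tanycyte marker of 10 abundant enough to be tested. The 10 together were at 77.9 against 203, 79.5 against 331, 170 against 219 and 97.4 against 430 CPM, although Rax had 0 UMIs by the rule.

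The oligodendrocyte precursor genes Tnr, a tenascin, and Lhfpl3 also fell in the positive class. Tnr was at 42.5 against 117, 57.4 against 147, 39.2 against 89.7 and 46.9 against 91.0 CPM (log2 -1.23, adjusted p = 9.01e-05) and Lhfpl3 fell by 0.81 on the log2 scale. Of the 5 precursor markers tested, 3 were lower at an unadjusted p under 0.05, which held for 4.35% of all genes. The 8 precursor markers summed to 241 against 565, 296 against 484, 239 against 425 and 267 against 396 CPM. The part of ependymal, tanycyte and precursor transcripts in the 68 calls was not tested. A stricter choice, made after seeing the data, took members with 0 Snhg11 UMIs and at most 1 UMI of Mobp, Mog and Mag together, which left 148, 126, 165 and 127 nuclei and 1989 genes. Of these 1 gene was called, Slit2, at log2 -1.33 (SE 0.24, adjusted p = 0.0233). Col23a1 was then at log2 -1.04 (SE 0.36, adjusted p = 0.813). At 1000 UMIs per nucleus 26 genes were called, of which 15 were among the 68, and with 4 or more marker UMIs 9, of which 8. No regional transcription factor passed. Of 6 tested, all had a positive difference (52.9% of all genes did) and 1 was higher in every library, with a median of 0.21, Id4 at 0.47 and Dbx2 at 0.34, and Dbx2 was at -0.16 after thinning.

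**Figure D3:**
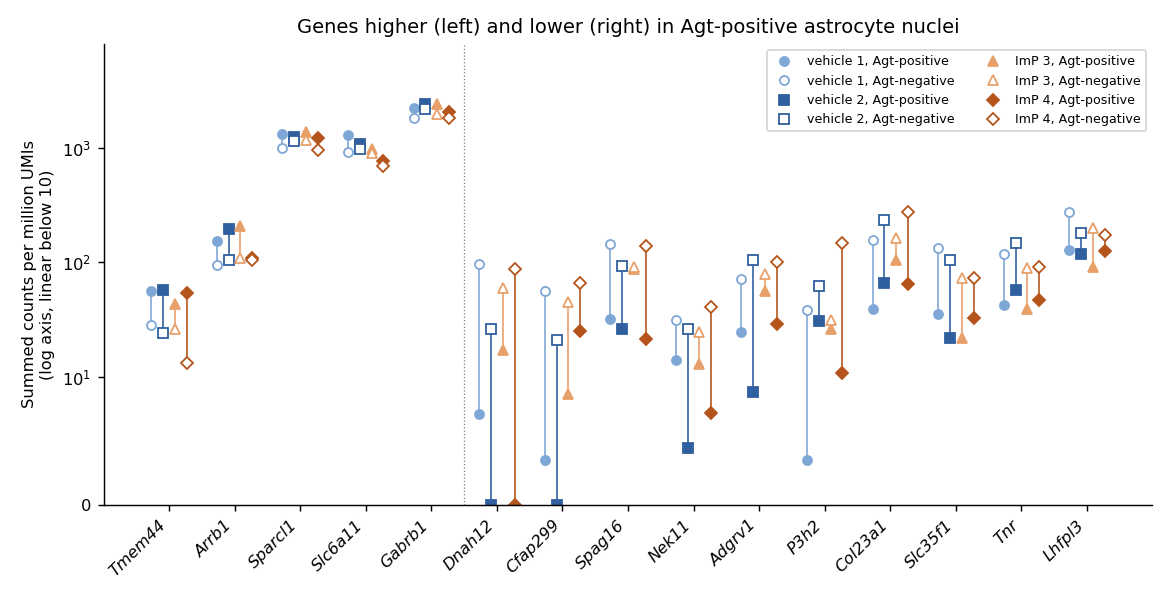
Summed CPM (log axis, linear below 10) of 15 genes in Agt-positive (filled) and Agt-negative (open) astrocyte nuclei, each pair of 1 library joined by a line. The 5 genes on the left passed as higher and show short lines, and the 10 on the right passed as lower, with Dnah12 at 0 in the Agt-positive nuclei of vehicle 2 and ImP 4.

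The 214 members with a Col23a1 UMI were compared with the 2022 without, as a description with no test, since the genes were chosen from their values. Slit2 was at 2244 against 242, 3069 against 259, 2622 against 247 and 3662 against 363 CPM, 10.4-fold on average. Efna5 was 14.7-fold higher, Adgrv1 14.8-fold and Spag16 9.04-fold, each in 4 of 4 libraries. Astrocyte genes were lower in the same nuclei, and their level there depends on the rule, which chose members by correlated markers. Pooled over libraries, Slc1a2 was at 1189 CPM in the 43 nuclei left out for Rax and at 1193 CPM in those with 1 marker UMI. Slc1a2 was at 1572, 1974, 1216 and 1504 CPM with a Col23a1 UMI against 2176, 2328, 2183 and 2010 without, and Gpc5 at 0.396 and Agt at 0.558 of the level without. Gfap did not separate them, being higher in 2 libraries and lower in 2.

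The 53 members with a Dnah12 UMI were compared with the rest in the same way. Cfap299 was 73.9-fold higher in them, Spag16 18.5-fold and Slit2 7.04-fold, while Agt was at 46.2, 0, 82.7 and 0 CPM against 180, 190, 184 and 215. Slc1a2 was at 538 to 1836 CPM in them against 1939 to 2307 CPM in the rest. In the 145 members with a Tnr UMI, Pcdh15, a protocadherin, was 15.4-fold higher, Opcml, a cell adhesion gene, 16.1-fold and Lhfpl3 10.1-fold, in 4 of 4 libraries each, whereas Slit2 was at 1.17 of the level without Tnr. Slc1a2 was at 0.720 of that level and Gpc5 at 0.734. Of the members, 9.57% had a Col23a1 UMI, 2.37% a Dnah12 UMI and 6.48% a Tnr UMI.

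Of the 20 genes that varied most from nucleus to nucleus, 10 (50%) were among the 68 calls of the Agt classes (14.7% of those), all lower in the positive class. Of all 7382 genes tested there, 0.921% were called. The share among genes abundant enough to be ranked here was not counted. At 1000 UMIs per nucleus, 4022 genes reached a mean of 0.05 UMIs, and their median variance over mean was 1.05, where 1 is the value of random sampling. Of these, 115 were above 1.5. Malat1, a nuclear noncoding RNA, led with 19.3. Col25a1, a membrane collagen, followed at 3.43, 13.8, 5.17 and 7.09 in the 4 libraries, then Nkain2 at 5.61 to 8.95. Slit2 was at 3.03, 5.14, 4.28 and 4.85, and Opcml, Pcdh15, Efna5, Col23a1, Csmd1, Tnr and Lrrtm4, which all fell in the Agt-positive class, were also among the 20 most variable. Tmeff2, at 3.71, also fell in that class (log2 -0.56) and was among the 20, as was the oligodendrocyte gene St18, at 3.69. Gh entered only through ImP 4, at 19.9 against 1.39, 0.986 and 1.16 in the others. Of the identity genes Gpc5 was the most variable at 3.20, with Apoe at 1.64, Slc1a2 at 1.55, Slc4a4 at 1.48 and Slc1a3 at 1.30.

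**Figure D4:**
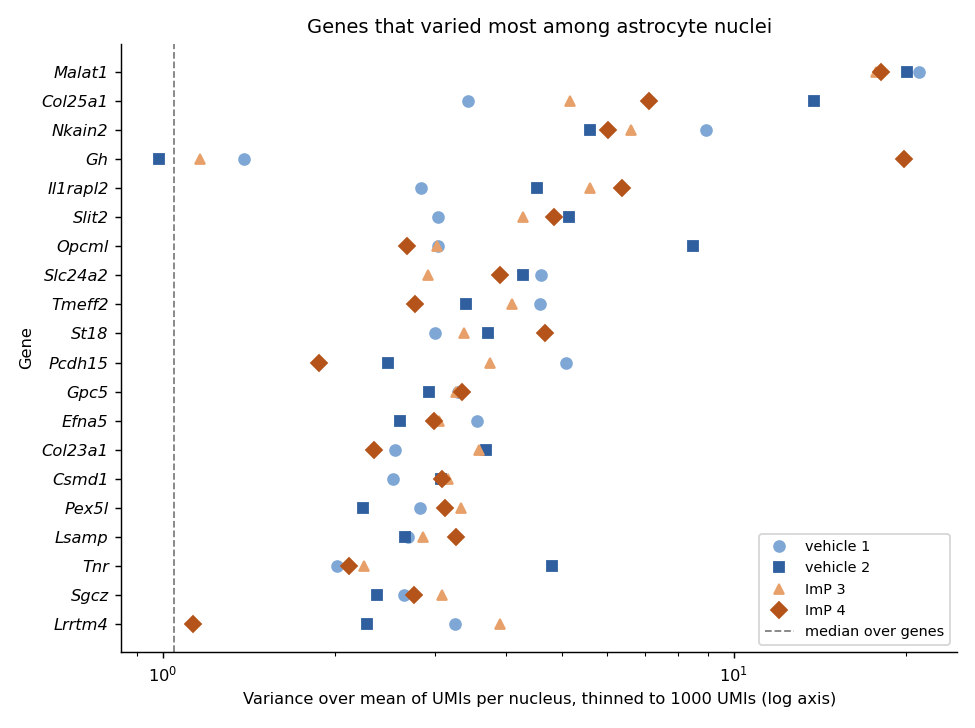
Variance over mean of UMIs per nucleus after thinning to 1000 UMIs (log axis) for the 20 most variable genes among astrocyte nuclei, with 1 point per library and the median over 4022 genes as a dashed line. Nearly all points lie right of the line; Gh does so by far in ImP 4 alone.

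The design compares ImP with vehicle, and in astrocyte numbers the groups overlapped. Members made up 4.89% of filtered nuclei in vehicle 1, 3.91% in vehicle 2, 4.10% in ImP 3 and 3.74% in ImP 4, with means of 4.4% ± 0.695 in vehicle and 3.92% ± 0.255 in ImP (SD, n = 2; exact permutation p = 0.667, two-sided). With 2 libraries a group the smallest possible p is 0.33. After thinning the order changed, at 2.90%, 2.56%, 2.97% and 2.78%. The Gfap-positive share was 3.52% ± 1.37 in vehicle and 4.44% ± 0.503 in ImP (n = 2, exact permutation p = 0.667), and without vehicle 2 the difference was -0.0569 percentage points. The Agt-positive share was 26.9% ± 0.579 and 26.4% ± 3.14 (n = 2, exact permutation p = 1), and without ImP 3 ImP was 1.64 percentage points above vehicle. Summed counts cannot tell fewer transcripts per nucleus from fewer nuclei that carry them.

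Between ImP and vehicle members 4 of 10832 genes passed the edgeR threshold (0.0369%), all higher in ImP. Of them 3, Gh, Prl and Pomc, encode hormones or hormone precursors made in the pituitary and were by far highest in ImP 4. Ptgds, which makes prostaglandin D2 and is abundant in meninges and oligodendrocytes, was at 260 and 331 CPM in the vehicle libraries against 596 and 822 CPM in the ImP libraries, with no overlap (log2 1.26, SE 0.20, edgeR adjusted p = 0.0203). It was present in 34.1% and 36.9% of vehicle members and 55.7% and 67.9% of ImP members. Growth hormone (Gh) was at 32.5, 9.52, 41.9 and 3481 CPM, prolactin (Prl) at 5.91, 3.57, 13.6 and 1174 CPM and proopiomelanocortin (Pomc) at 26.6, 40.5, 72.3 and 559 CPM, with log2 6.33, 6.90 and 3.24 and the same adjusted p of 0.0203. In ImP 4, 97.8% of members carried Gh, and 1 nucleus had 234 UMIs. With that library left out the log2 values were 0.94 for Gh, 1.47 for Prl and 1.13 for Pomc. Without ImP 4 the adjusted p was 0.574 for Gh, 0.992 for Prl and 0.128 for Pomc, and 5 genes passed, of which Ptgds alone was among the 4, at log2 1.02 (adjusted p = 0.00229). The lone remaining library is then assumed to vary like the others. Without vehicle 1 Ptgds had log2 1.06 and an adjusted p of 0.276. Without the 67 Scrublet-marked nuclei it had log2 1.32 and 0.172, and edgeR called 0 genes, while 1054 had an unadjusted p under 0.05.

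These transcripts moved in other cells as well. Ptgds was at 80.9, 128, 200 and 281 CPM in the comparison neurons, 1.2 higher on the log2 scale, and at 918, 1244, 1051 and 2203 CPM in oligodendrocytes, where the groups overlapped. The hormones were higher in ImP 4 in both sets, with Gh at 1178 CPM in neurons and 2676 CPM in oligodendrocytes. Oxt, the hypothalamic hormone oxytocin, was at 218, 357, 520 and 678 CPM in members and 116, 172, 241 and 291 CPM in neurons. Its log2 difference in members was 1.06 and did not pass (adjusted p = 0.0799). The 14 neuron markers summed to 2714, 3514, 4095 and 5299 CPM in members. All 14 had a positive difference (50.4% of all genes), among them Snhg11, which the rule limits, at log2 0.20. Of the 14, 11 were without overlap between groups (21.5% of all genes lay that way). An unadjusted p under 0.05 was found for 8 (7.53% of all genes in that direction), and 0 were called. The 10 oligodendrocyte markers summed to 1277, 1294, 1632 and 1584 CPM, and 9 pituitary markers to 48.3, 16.7, 62.9 and 5297 CPM. Their part in the 4 calls was not tested. Under the limit on Snhg11 and myelin UMIs given above Ptgds was at log2 1.16 (adjusted p = 0.0947) and edgeR called 0 of 4597 genes, 369 of which had an unadjusted p under 0.05.

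**Figure D5:**
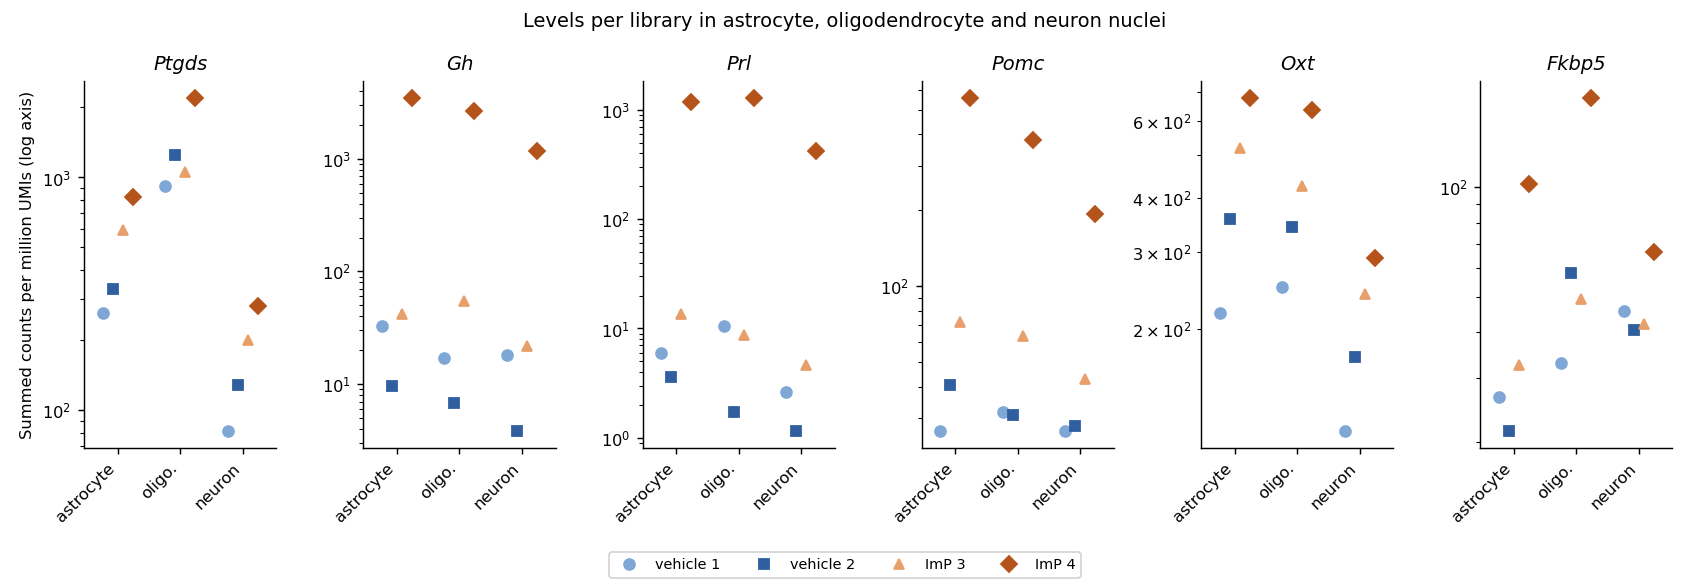
Summed CPM (log axis) of 6 transcripts in astrocyte nuclei, oligodendrocytes and neurons, with 1 point per library. For Gh, Prl and Pomc the ImP 4 points stand far above all others in each set of nuclei, while Ptgds and Oxt show both ImP points above both vehicle points in astrocyte nuclei and neurons.

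No identity gene passed in the ImP comparison. Of 26, 11 had a positive difference and the median was -0.05 against 0.00 for all genes. Cst3, the protease inhibitor cystatin C, was at 1030, 1254, 1612 and 1727 CPM (log2 0.54, unadjusted p = 0.00882). It was also without overlap in the comparison neurons, at 261, 334, 483 and 541 CPM (log2 0.78), and in the oligodendrocytes, at 648, 852, 1084 and 1305 CPM (log2 0.67). The 6 markers lay between log2 -0.26 for Aqp4 and 0.20 for Gfap, with Agt at 0.11 (adjusted p = 0.900). Glucocorticoid-induced genes had the highest median among the functional lists. The list summed to 1361, 1479, 1597 and 2245 CPM, so most of the difference lay in ImP 4. All 14 tested had a positive difference, at a median of 0.46, 6 with an unadjusted p under 0.05 (7.53% of all genes had this in that direction) and 0 called. Without ImP 4 the median was 0.18, with 13 of 14 positive and 1 at an unadjusted p under 0.05. Fkbp5, a chaperone induced by glucocorticoids, was at 26.6, 21.4, 32.5 and 102 CPM (log2 1.47, SE 0.38, edgeR adjusted p = 0.138), high in ImP 4 alone, and without that library at log2 0.43 (adjusted p = 0.997). In the oligodendrocytes it was at 33.0, 58.3, 49.3 and 176 CPM, again highest in ImP 4. Errfi1, an inhibitor of EGF receptor signalling, was at 23.6, 21.4, 41.9 and 48.0 CPM (log2 0.98, adjusted p = 0.178) and did not overlap. Tsc22d3, another glucocorticoid target, was at 120, 144, 152 and 263 CPM in members (log2 0.65, and 0.21 without ImP 4) and 8.97, 10.6, 12.4 and 19.9 CPM in neurons. The kinase gene Sgk1 was at 10.8, 32.1, 21.0 and 86.6 CPM in members and 205, 189, 291 and 649 CPM in oligodendrocytes.

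No gene of the following lists passed. The 13 glutamate and GABA genes tested had a median of -0.13, with 3 lower at an unadjusted p under 0.05 (2.7% of all genes). Among them Abat, which breaks down GABA, was at 296, 287, 226 and 201 CPM (log2 -0.45, adjusted p = 0.360). The 28 receptor genes had a median of -0.17. The histamine receptor gene Hrh1 was at 114, 86.9, 80.7 and 57.4 CPM (log2 -0.55, adjusted p = 0.351), and Dio2 at 9.85 and 9.52 against 18.9 and 26.1 CPM (log2 1.2, adjusted p = 0.275). Of the histamine, histidine and imidazoline genes, 7 of 17 were tested, with a median of -0.03 and 0 called. Of 12 regional factors tested, 3 had a positive difference, at a median of -0.31. Id4 was at 69.0 and 82.1 against 120 and 108 CPM and Nkx2-1 at 7.88 and 8.33 against 17.8 and 19.8 CPM, while Dbx2 was at 152 and 156 against 137 and 98.1 CPM (log2 -0.39) and Pax6 at 21.7 and 20.2 against 14.7 and 10.4 CPM (log2 -0.74), none past the threshold. The 11 reactive genes tested had a median of 0.20, and Cp, ceruloplasmin, had log2 1.02 (adjusted p = 0.411). Of the 7 ependymal markers tested 6 had a positive difference (50.4% of all genes), 4 of them without overlap (21.5%) and 0 called, at a median of 0.92. Rsph1 was at 3.94, 4.76, 13.6 and 14.6 CPM, on 4, 4, 13 and 14 UMIs. The 9 ependymal markers summed to 209, 95.2, 206 and 223 CPM, so in the sum the groups overlapped. No gene fell past the threshold, whereas 36 did with the number in the library names as a term, 56 with ImP 3 left out, 11 without vehicle 2 and 1 without vehicle 1. The 5 of smallest p in that direction were Rpa1, of DNA replication and repair, at 70.9, 70.2, 38.8 and 38.6 CPM (log2 -0.87, adjusted p = 0.156), and Nup188, Ky, Elmo2 and Smad3, with log2 values of -1.44 to -0.75.

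The library names begin with 111 for vehicle 1 and ImP 3 and with 113 for vehicle 2 and ImP 4, and the labels do not say what these numbers mean. Within 111 Ptgds went from 260 to 596 CPM, and within 113 from 331 to 822 CPM. With the number as a term in the model 340 genes passed, 304 higher and 36 lower in ImP, the 4 among them, on 1 residual degree of freedom. Leaving out vehicle 2 gave 172 calls and leaving out ImP 3 gave 284, so the count of 4 depends strongly on the libraries included. On simulated counts the test recovered 38.9% of genes changed 2-fold and 89.5% of those changed 4-fold.

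The ImP effect differed between Gfap-positive and Gfap-negative members for 2 of 9152 genes (0.0219%), Col23a1 and Slit2, by edgeR's test of the interaction. Col23a1 was at 435, 238, 0 and 105 CPM in Gfap-positive and 106, 189, 158 and 221 CPM in Gfap-negative nuclei (log2 interaction -3.33, SE 0.70, adjusted p = 0.0180). Slit2 was at 779, 988, 20.2 and 785 CPM in Gfap-positive and 394, 571, 466 and 851 CPM in Gfap-negative nuclei (-1.77, SE 0.39, adjusted p = 0.0310). The Gfap-positive values are thin: Col23a1 had 24, 7, 0 and 4 UMIs there, in 5, 2, 0 and 1 nuclei. Neither passed without vehicle 1 (adjusted p = 0.949 for both) or without ImP 3, and edgeR called 0 genes with no filter on low counts, after thinning or at 4 or more marker UMIs. On simulated counts the interaction test recovered 0% of genes changed 2-fold and 5.56% of those changed 4-fold. DESeq2 called none, with 70 genes at an unadjusted p under 0.05.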

How the data were processed

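Nuclei of 4 hypothalamus libraries were profiled with the 10x Genomics 3′ v3.1 kit. The deposited files hold UMI counts per gene and barcode, whole numbers that the authors made with Cell Ranger 8.0.1 on the build GRCm39, and Seurat 5.0.0 is listed too, per the submitters' processing notes. The labels give neither the annotation nor how intronic or antisense reads were counted. The files list 33696 genes, and library totals were 48060194, 49291659, 49508252 and 51945297 UMIs. The members and all gene lists were chosen with earlier results of these data known.

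Counts were summed per library over the members, or per library and class, and tested with edgeR 4.0.16 (glmQLFit, TMM factors, filterByExpr at a count of 10, Benjamini-Hochberg threshold 0.05) in R 4.3.3, and DESeq2 1.42.0 was an alternative. CPM scales the UMIs of the nuclei summed to 1000000. Standard errors come from the test statistic. Shares have exact 95% binomial intervals and two-sided exact permutation tests (scipy 1.17.1). Doublets were scored with Scrublet in scanpy 1.11.5 and left out only as an alternative. The tests were tried on simulated counts with known changes and, within each comparison, the same spread for all genes.

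Genes were named by rule. For ImP these were the marker genes and the 12 largest changes in each direction past the threshold, at a mean of 10 CPM and without overlap between groups, or the 5 of smallest p where fewer than 3 passed. For the classes they were the 15 largest changes in each direction at a mean of 20 CPM with 1 direction in every library. For the lists up to 4 genes of smallest p were named, for the spread the 20 most variable genes, and level tables gave the other examples. Some genes that these rules name are not reported here. Tests that left out each library, changed the scaling or low-count filter, raised the member limits or thinned nuclei are given in the closing section.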

Additional observations from a re-analysis of the deposited data

Results flagged for a closer look

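The effect of ImP differed between Gfap-positive and Gfap-negative astrocyte nuclei for 2 genes by edgeR's test of the interaction with library as a block. The log2 interaction was -3.33 for Col23a1 (adjusted p = 0.0180) and -1.77 for Slit2 (adjusted p = 0.0310), so in both genes the ImP difference was lower among Gfap-positive nuclei. The Gfap-positive values rest on 24, 7, 0 and 4 UMIs of Col23a1 and on 43, 29, 1 and 30 UMIs of Slit2 in vehicle 1, vehicle 2, ImP 3 and ImP 4. These came from 5, 2, 0 and 1 nuclei for Col23a1 and from 11, 8, 1 and 4 nuclei for Slit2. Without ImP 3 the values were -2.54 and -1.09 (adjusted p = 1 for both). Without vehicle 1 they were -2.21 and -1.66 (adjusted p = 0.949 for both). Without vehicle 2 Slit2 had an adjusted p of 0.214. Over the alternatives run the adjusted p ranged from 0.000577 to 1 for Col23a1 and from 3.51e-07 to 1 for Slit2.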

How the results depend on the processing

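The groups share no replicate numbers (1 and 2 in vehicle, 3 and 4 in ImP), so no paired analysis by replicate number was possible. The library-name number links vehicle 1 with ImP 3 and vehicle 2 with ImP 4, and the fit with it as a block is given here. Between ImP and vehicle 4 genes passed, and 1 with DESeq2, 37 with no filter on low counts, 340 with the library-name number as a term (304 higher and 36 lower), 0 without Scrublet-marked nuclei, 7 at 4 or more marker UMIs, 2 at 1000 or more genes per nucleus, 0 without other-type UMIs, and 5 to 284 with 1 library left out. For the Gfap classes 0 passed, and 1 with DESeq2's factors, 20 with no filter, 21 with the class limit at 2 UMIs, and 0 to 1 with 1 library left out. For the Agt classes 68 passed, and 3 with DESeq2, 4 without the library block, 31 with the class limit at 2 UMIs, 9 at 4 or more marker UMIs, 39 at 1000 or more genes, 26 thinned, 1 without other-type UMIs, and 34 to 62 with 1 library left out (45 without vehicle 1, 39 without vehicle 2 and 34 without ImP 4). For the interaction 2 passed, and 4 at 1000 or more genes, 0 with DESeq2, with no filter, at 4 or more marker UMIs, thinned and without other-type UMIs, and 0 to 4 with 1 library left out. In the settings with 0 calls, genes at an unadjusted p under 0.05 numbered 1054 and 369 for ImP, and 70 to 276 for the interaction. The cause of these changes was not tested. Where 1 library of a group is left, it is assumed to vary like the others.

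The ImP minus vehicle difference in the astrocyte share was -0.480 percentage points, 0.145 after thinning and -0.972 to 0.0110 with 1 library left out. For the Gfap-positive share it was 0.913, and -0.0569 to 1.88 with 1 library left out. For the Agt-positive share it was -0.580, and -2.80 to 1.64 with 1 library left out.

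Among the 48 genes named for ImP, 524 of 575 alternative values kept direction and side of the threshold. Only 4 of the 48 had passed, and for the others staying short of the threshold says little about stability. The 15 values that fell short of it all belonged to these 4, Ptgds, Gh, Pomc and Prl. Except for Stat3, reversed log2 values lay between -0.24 and 0.225. At 4 or more marker UMIs Ntsr2 was at -0.0594 and Agt at -0.0807, at 1000 or more genes these were -0.0999 and -0.0035, and Slc39a12 lay between -0.034 and 0.174 with 1 library left out, lowest without vehicle 1. Among the Gfap classes Stat3 was at -2.03 with the class limit at 2 UMIs, -0.013 at 4 or more marker UMIs, -0.174 at 1000 or more genes and -0.0405 to 0.627 with 1 library left out. There Fbln5 lay between -0.0685 and 1.16, Ggta1 between -0.818 and 0.0811 and Olig1 between -1.24 and 0.149 with 1 library left out. Among the Agt classes, 327 of 530 values kept direction and side, and 197 fell short of the threshold. With the class limit at 2 UMIs Kirrel3 was at -0.0324 and Nr2f1 at -0.12, after thinning Dbx2 was at -0.16 and Nr2f1 at -0.24, and with 1 library left out Pdgfra lay between -0.668 and 0.225. With 840242 to 1015082 UMIs per library in the members, genes at a few CPM rest on few molecules.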

Other observations

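Genes for the handling of histamine, histidine and imidazolines, the chemical family of ImP, were detected in part. Of 17 listed, 10 were detected in all 4 libraries and 7 were higher in members than in other nuclei in all libraries, while 37.2% of all genes tested were. They summed to 564, 461, 510 and 457 CPM in members against 249, 231, 237 and 238 CPM in other nuclei, and 0 of the 7 tested passed between ImP and vehicle. Immediate early genes, which follow recent activity, summed to 155, 159, 179 and 309 CPM, with ImP 4 the highest, and 0 of the 7 tested passed, at a median log2 difference of 0.38, and of 0.035 without ImP 4. Microglia markers summed to 235, 248, 246 and 351 CPM, endothelial and mural markers to 91.6, 72.6, 115 and 141 CPM, and fibroblast markers to 160, 152, 182 and 194 CPM in the same nuclei, with 0 called on each list.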
